A study of Zea mays with 18 samples.

Results

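The effect of the opaque2 (o2) mutation in the maize inbred line B46 was measured on 6 two-colour cDNA arrays, chosen by their labels out of 18 arrays in the series. Each array compared polyA RNA of B46 o2 mutant endosperm with polyA RNA of B46 wild-type endosperm, both collected 14 days after pollination. Per the labels, 3 independent sample pairs were each hybridised to 2 arrays with the dyes exchanged, so the 6 arrays gave 3 replicates. The other 12 arrays made the same comparison in the inbred line M14 and in mixed pools of 8 lines (A619, B14A, B45, B46, B57, B66, B73 and M14), and enter here mainly through a shared estimate of the spread. Neither the o2 allele nor the number of ears behind a sample is stated in the labels used here.

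The o2 gene encodes Opaque2, a bZIP transcription factor made in the endosperm, the tissue that stores starch and protein in the maize kernel. Opaque2 activates genes of the z1C class of alpha zeins, the main storage proteins of the kernel, and the gene of cytosolic pyruvate orthophosphate dikinase. Kernels of o2 mutants hold less alpha zein, have a soft and opaque texture, and are richer in lysine.

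The deposited table held 7466 clones with a value on every array, and 489 of them (6.55%) carried a gene name, for 370 genes. Values are log ratios, centred on each array's median and given as o2 over wild type, so that a negative value means a lower level in o2. The base of the log is not stated, so sizes are in log units, and a few are also given as folds under base 2 and under the natural log. The direction of the ratio is an assumption and is not settled: because the design text names wild type first, each array was taken to hold wild type over o2, and its sign was then turned. In this direction partner arrays of a dye swap correlated at -0.15, -0.018 and -0.35, and 897 clones kept 1 sign on all 6 arrays. Read instead as Cy5 over Cy3, by the labelled dyes, 869 did. The signs of the alpha zein z1C1_12 and the dikinase pdk1 had also been looked at when this direction was set. Both means lie below 0 under either reading, so they do not choose between the readings. Ratios carry no level, so the presence of tissue markers could not be checked in either genotype. Endosperm is a bulk tissue, and fewer cells of a type and less RNA per cell cannot be told apart.

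In B46, 341 of 7466 clones passed the test (4.57%, limma adjusted p under 0.05), and in the fit of all replicates most of the calls were reductions in o2 endosperm. The lower clones numbered 273 (3.66% of all clones) and the higher ones 68 (0.911%). At an unadjusted p under 0.05, 1374 clones passed. Among the called clones the reductions were also the larger changes: the lower clones had a median of -1.04 log units and the higher clones one of 0.63. Of the lower clones, 145 fell by more than 1 log unit, 58 by more than 2 and 18 by more than 3, whereas 10 of the higher clones rose by more than 1 and 2 by more than 2. Over all clones, called or not, the median was 0.007 and the 5th and 95th percentiles were -0.81 and 0.71. If each value is instead read as Cy5 over Cy3, by the labelled dyes, 5 clones passed, 4 higher and 1 lower. With the spread estimated from the B46 replicates alone, no clone passed, the smallest adjusted p was 0.21, and 1032 clones had an unadjusted p under 0.05. The excess of reductions also rested on single replicates: 183 lower and 22 higher clones passed without replicate 2, but 3 lower and 4 higher without replicate 3, and 0 lower and 1 higher without replicate 1.

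**Figure D1:**
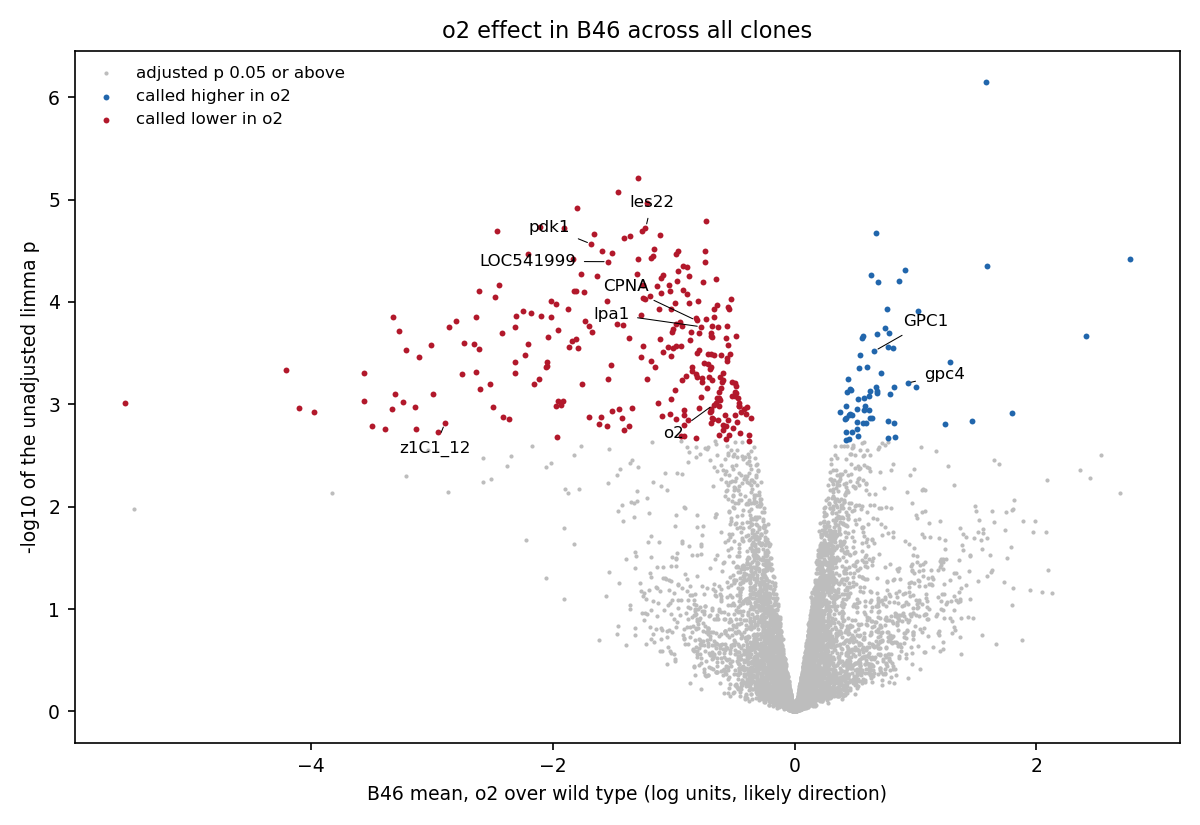
Mean log ratio of o2 over wild type in B46 (x axis, log units) against the -log10 of the unadjusted limma p (y axis) for 7466 clones. The 273 clones called lower reach -5.54 log units and the 68 called higher reach 2.77, and 9 named genes are marked at their gene means.

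Named genes were tested with the clones of a gene averaged, beside the unnamed clones, and 341 of 7347 such features passed (4.64%). Among the 370 named genes, 19 passed (5.14%), 13 lower and 6 higher, against 3.72% lower and 0.926% higher over all features. The call of each of the 19 ended without B46 replicate 1, when 0 named genes passed in the limma fit (57 at an unadjusted p under 0.05). Read as Cy5 over Cy3, 0 named genes passed (40 unadjusted), and 6 of the 19 changed sign. With the B46 replicates alone, 0 passed as well (56 unadjusted). Without replicate 2, 6 of the 19 still passed, and without replicate 3, 4 did. Leaving out 1 replicate of M14 or of the mixed pools, which changes only the shared spread, left between 10 and 15 of the 19 past the threshold. The lower genes held the alpha zein, the dikinase, o2 itself, a malic enzyme, a debranching enzyme of starch, a chaperonin and a phytic acid gene. Among the higher genes were a pair of cytosolic glyceraldehyde 3-phosphate dehydrogenases, the glycolytic enzyme that makes NADH.

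The mutated gene, o2, was represented by 1 clone. It had values of -0.84, -0.60 and -0.56 in the 3 replicates and lay between -1.17 and -0.24 on the 6 arrays. All 6 array values were below 0, as were those of 6.66% of all clones. The mean of -0.67 ± 0.15 passed the test (limma adjusted p = 0.0301, SD over n = 3). It is 1.59-fold lower under base 2 and 1.95-fold lower under the natural log. This call ended without any 1 of the 3 B46 replicates (adjusted p between 0.0817 and 0.168) and with a replicate block (adjusted p = 0.0896). Among the other comparisons, it ended on leaving out mixed replicate 1 (0.0536), mixed replicate 3 (0.0519) or M14 replicate 3 (0.0512). Read as Cy5 over Cy3, o2 stood at -0.13 (0.775). Which part of the transcript the clone covers is not given, and some o2 alleles still make a transcript.

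The zein z1C1_12 is a member of the alpha zein class that Opaque2 activates. Its replicate values were -3.68, -1.43 and -3.54, and its array values reached -4.36. Every array was below 0, and replicate 2 was the nearest to 0 on both of its arrays (-1.44 and -1.43). The mean of -2.89 ± 1.26 (SD, n = 3, limma adjusted p = 0.0369) was the lowest of any named gene. It corresponds to a 7.39-fold lower level under base 2 and a 17.9-fold lower one under the natural log. The adjusted p was 0.199 without replicate 1, 0.147 without replicate 3, 0.0612 without M14 replicate 1, between 0.0694 and 0.0717 without any 1 mixed replicate, and 0.0879 with a replicate block. Read as Cy5 over Cy3, its mean was -0.39 (0.323). Zein genes come in near-identical copies, and a cDNA clone may bind transcripts of several of them.

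Pyruvate orthophosphate dikinase, pdk1, converts pyruvate to phosphoenolpyruvate and is a known Opaque2 target. It had -1.76, -1.54 and -1.74 in the 3 replicates. Array values ran between -2.52 and -0.95, all below 0, and each wild-type-on-Cy5 array was lower than its partner. Its mean was -1.68 ± 0.12 (SD, n = 3, limma adjusted p = 0.00967), or 3.2-fold lower under base 2 and 5.36-fold lower under the natural log. Without replicate 1 the adjusted p was 0.0679, and read as Cy5 over Cy3 the mean was -0.47 with an adjusted p of 0.281. The signs of z1C1_12 and pdk1 had been looked at when the direction of the ratio was set, so they are no independent evidence for it.

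The delta zein dzs18, a sulfur-rich storage protein, had -0.29, -0.37 and -1.55. All replicates were below 0 but spread widely, and 1 of 6 arrays, with o2 on Cy5, stood at 0.33. The mean of -0.74 ± 0.71 did not pass (limma adjusted p = 0.364). The gene Asn1, whose table entry carries an alias that names another kind of protein and is therefore given no role here, had -1.03, -0.67 and -0.84 and lay below 0 on 6 of 6 arrays. Its mean of -0.85 ± 0.18 passed (SD, n = 3, limma adjusted p = 0.0195).

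**Figure D2:**
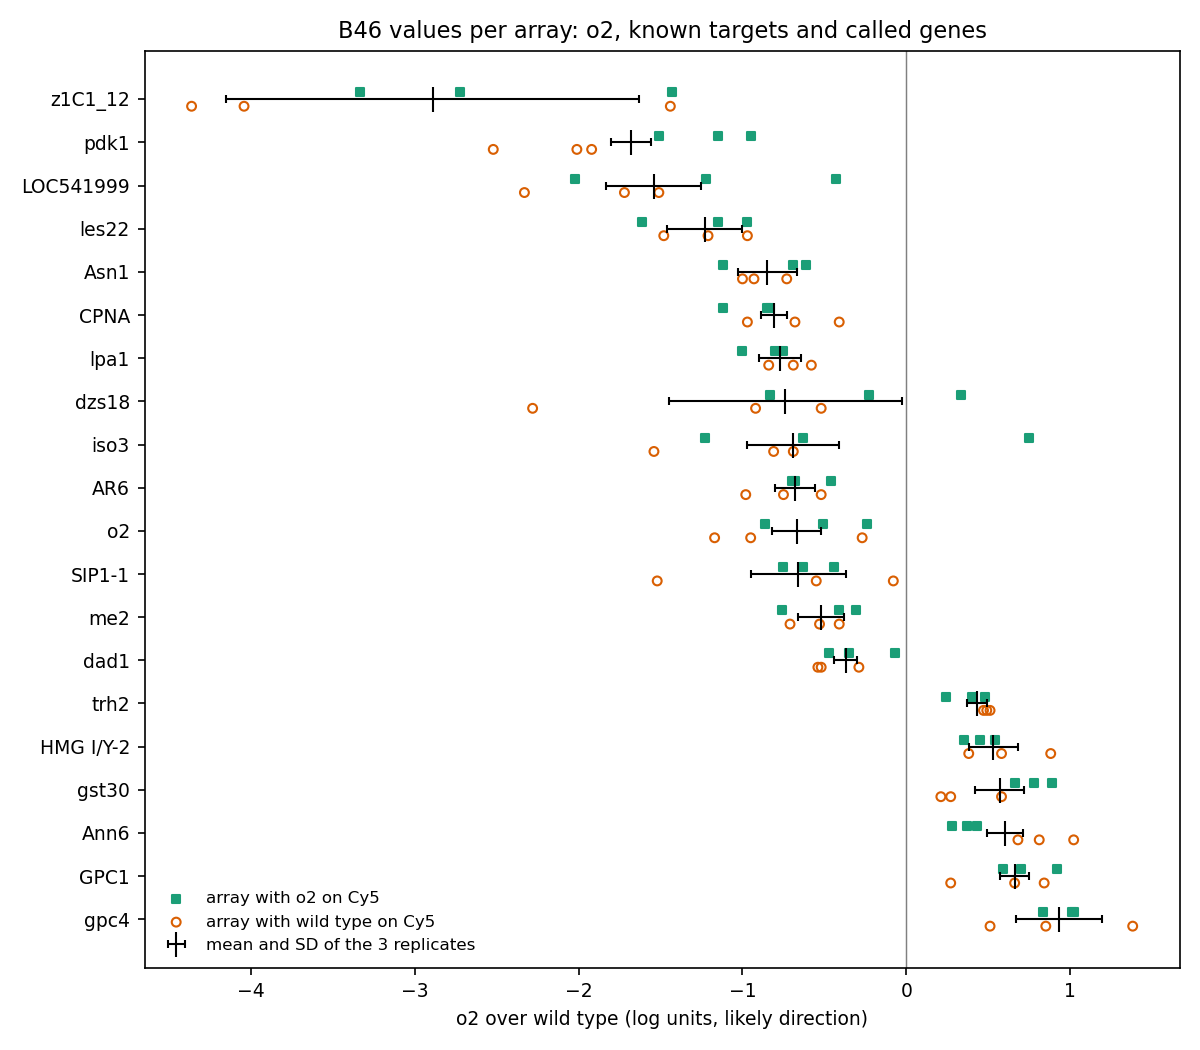
Log ratio of o2 over wild type (x axis, log units) on each of the 6 B46 arrays for o2, its known targets, Asn1 and all 19 called genes (rows). Squares are arrays with o2 on Cy5, open circles are arrays with wild type on Cy5, and bars give the mean and SD of the 3 replicates, from -2.89 for z1C1_12 to 0.93 for gpc4.

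The remaining lower genes fell by less than z1C1_12 and pdk1. LOC541999, for which no function is given in the tables used, had -1.37, -1.38 and -1.87 and a mean of -1.54 ± 0.29 (limma adjusted p = 0.00967). All 6 arrays were below 0, though replicate 2 stood at -2.33 with wild type on Cy5 and -0.43 with o2 on Cy5. The gene les22 encodes uroporphyrinogen decarboxylase, an enzyme of porphyrin synthesis. Its replicates were -1.41, -0.97 and -1.32, and its arrays kept between -1.61 and -0.97 whichever dye labelled o2. The mean was -1.23 ± 0.23 (limma adjusted p = 0.00967), and 0.01 when read as Cy5 over Cy3.

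The chaperonin gene CPNA, whose protein helps others fold in mitochondria, had -0.77, -0.76 and -0.90, and a mean of -0.81 ± 0.08 (limma adjusted p = 0.012). The gene lpa1 codes for an ABC transporter, and its mutants have seeds low in phytic acid. It had -0.92, -0.66 and -0.74, and a mean of -0.77 ± 0.13 (adjusted p = 0.0124). Both genes were below 0 on 6 of 6 arrays. The call of CPNA ended without replicate 1 or replicate 3, and so did that of lpa1. Read as Cy5 over Cy3, both calls ended and both signs turned, with CPNA at 0.12 and lpa1 at 0.07.

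Of the enzymes of carbon metabolism, me2, a malic enzyme that releases pyruvate from malate, had -0.64, -0.56 and -0.36, with a mean of -0.52 ± 0.14 (limma adjusted p = 0.0224). The isoamylase-type debranching enzyme iso3, which trims the branches of starch, had -0.72, -0.96 and -0.39, with a mean of -0.69 ± 0.28 (limma adjusted p = 0.0369). The arrays of me2 were all below 0, whereas those of iso3 in replicate 3 stood at 0.75 with o2 on Cy5 and -1.54 with wild type on Cy5.

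The remaining 3 lower genes had means between -0.68 and -0.37. AR6, also listed as deoxymugineic acid synthase, an enzyme that makes an iron chelator, had -0.83, -0.61 and -0.61 over 2 clones, with a mean of -0.68 ± 0.12 (limma adjusted p = 0.0339). The small basic aquaporin SIP1-1 had -0.41, -0.59 and -0.98, with a mean of -0.66 ± 0.29 (adjusted p = 0.0499, at the edge of the threshold). The gene dad1, a subunit of the complex that attaches sugars to new proteins in the endoplasmic reticulum, had -0.43, -0.30 and -0.38, with a mean of -0.37 ± 0.07 (adjusted p = 0.0454). All 3 genes were below 0 on every array.

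Among the genes that rose, gpc4 and GPC1 encode cytosolic glyceraldehyde 3-phosphate dehydrogenase. The gpc4 values were 0.94, 1.20 and 0.67, with a mean of 0.93 ± 0.26 (SD, n = 3, limma adjusted p = 0.0226). GPC1 had 0.62, 0.77 and 0.59, with a mean of 0.66 ± 0.09 (limma adjusted p = 0.015). Both were above 0 on all 6 arrays, and gpc4 was 1.91-fold higher in o2 under base 2 and 2.55-fold under the natural log. For GPC1 the adjusted p without a B46 replicate lay between 0.0632 and 0.0884, and for gpc4 between 0.0611 and 0.13. Both calls ended and both signs turned when read as Cy5 over Cy3, with GPC1 at -0.07 and gpc4 at -0.02. The paralogue gpc3 had 1 called clone (0.80, 1.08 and 0.58, mean 0.82 ± 0.25, adjusted p = 0.0371) and 1 uncalled clone (mean 0.55 ± 0.27), and its gene mean of 0.69 ± 0.25 did not pass (adjusted p = 0.0616). These genes resemble each other in sequence, and a clone of 1 may bind transcripts of the others.

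The other 4 higher genes rose by less. Ann6, an annexin, a protein that binds membranes in the presence of calcium, had 0.62, 0.70 and 0.48, with a mean of 0.60 ± 0.11 (limma adjusted p = 0.0183). The glutathione transferase gst30, of a family that conjugates glutathione to reactive compounds, had 0.53, 0.73 and 0.43, with a mean of 0.57 ± 0.15 (adjusted p = 0.037). HMG I/Y-2, a chromatin protein that binds AT-rich DNA, had 0.56, 0.66 and 0.37, with a mean of 0.53 ± 0.15 (adjusted p = 0.0185). The h-type thioredoxin trh2, which reduces disulfide bonds, had 0.43, 0.37 and 0.48, with a mean of 0.43 ± 0.06 (adjusted p = 0.0348). Each of the 4 was above 0 on 6 of 6 arrays. In Ann6 the wild-type-on-Cy5 array was the higher of every pair, and in gst30 the o2-on-Cy5 array was. Read as Cy5 over Cy3, none of the 4 passed, and gst30 turned to -0.21.

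Several named genes had large means that did not pass, and in many of them 1 or 2 arrays stood far from the others. The plasma membrane proton pump gene mha2 had the highest mean, 2.69 ± 1.73 (limma adjusted p = 0.0977). Its arrays with wild type on Cy5 stood at 6.78, 1.01 and 7.58 and those with o2 on Cy5 at 1.32, 0.46 and -1.01. The cinnamyl alcohol dehydrogenase gene BM1 of lignin synthesis stood at 6.08 and -2.03 on the arrays of replicate 3. The O-methyltransferase gene zrp4 (1.21 ± 1.30), the glutathione transferase gst13 (1.09 ± 0.97), the developmental regulator rs2 (1.09 ± 0.58) and LOC542698 (1.10 ± 1.18) each had 1 array between 3.59 and 5.22, always with wild type on Cy5.

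Others came nearer to the threshold. The pyruvate decarboxylase pdc3 had 1.41, 1.34 and 0.40 (mean 1.05 ± 0.57, limma adjusted p = 0.0535). The homocysteine methyltransferase HMT-3, which makes methionine, had 0.51, 0.60 and 1.76 (mean 0.96 ± 0.70, limma adjusted p = 0.0783) and was above 0 on all 6 arrays. Aprl8 (0.86 ± 0.24), the aquaporin SIP2-1 (0.86 ± 0.56) and the replication clamp pcna1 (0.80 ± 0.50) completed the 12 highest means with 1 sign in all 3 replicates, as 42.3% of clones had.

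On the low side, where 20.5% of features lay below 0 in all 3 replicates, a2, the anthocyanidin synthase of the anthocyanin pathway, had a mean of -1.28 ± 0.52 (limma adjusted p = 0.286). Its arrays with wild type on Cy5 stood at -3.33, -3.23 and -1.40 and its o2-on-Cy5 arrays at 0.25, 0.00 and 0.04. The cinnamoyl-CoA reductase gene CCR of lignin synthesis (-0.89 ± 0.37, limma adjusted p = 0.0537) and the heat shock gene hsp22 (-0.97 ± 0.16, adjusted p = 0.0766) were below 0 on every array but missed the threshold. The protein disulfide isomerase PDIL1-1, which forms disulfide bonds in new proteins, had -1.45, -0.75 and -0.43 (mean -0.88 ± 0.52, adjusted p = 0.0661). The response regulator RR6 (-1.09 ± 1.39), gst12 (-0.97 ± 0.48) and GRF13 (-0.83 ± 0.88) varied more between arrays than their means.

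Gene groups are described by counts and medians over gene means, beside a median of 0.007 and 51.1% above 0 over all 7347 features, of which 3.72% were called lower and 0.926% higher. The lists were chosen with earlier results of these data known, so a list set beside these shares is no test. All 6 glycolysis genes lay above 0 in every replicate, as 21.8% of features did, with a median of 0.48 log units. Of these, 2 passed (gpc4 and GPC1), and their clones may also bind transcripts of gpc3 and of each other. The others were gpc3, the fructokinase frk1 (0.29 ± 0.02, limma adjusted p = 0.0764), the enolase eno1 (0.16 ± 0.14) and the hexose phosphate isomerase phi1 (0.06). The glycolysis genes kept a positive median without centring, with scaled arrays and with centring by table position (0.41 to 0.50), but 1 of 6 was above 0 when read as Cy5 over Cy3 (median -0.04).

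Of the 4 genes of ethanol fermentation none passed, with a median of 0.17. The alcohol dehydrogenases adh1 (0.17 ± 0.26) and adh2 (0.16 ± 0.08) and the decarboxylase pdc1 (-0.23 ± 0.04) lay near 0, apart from pdc3. The 6 genes of organic acid metabolism had 2 called lower, pdk1 and me2, against 3.72% of all features, and a median of 0.002. The phosphoenolpyruvate carboxylase gene pep7 (0.31 ± 0.25) and the formate dehydrogenase gene fdh1 (0.33 ± 0.36) were the highest of this group. None of 3 genes of sucrose cleavage passed. The sucrose synthases sh1 and sus1 stood at 0.21 and 0.09 and the cell wall invertase mn1 at -0.20.

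Starch synthesis held 8 genes with a median of -0.040, and 1 was called lower, iso3. The pullulanase-type debranching enzyme zpu1 had a mean of -0.52 ± 0.40 with arrays between -3.67 and 3.43. The granule-bound starch synthase wx1 (0.31 ± 0.27), the branching enzyme ae1 (0.30 ± 0.21) and the ADP-glucose pyrophosphorylase subunit AGPLS3 (0.24 ± 0.09) had positive means that did not pass (limma adjusted p between 0.228 and 0.248). The branching enzyme sbe1 was measured by 2 clones that disagreed. The clone on table row 12497 was called lower (-0.61 ± 0.21, adjusted p = 0.0244), the clone on row 12845 stood at 0.43 ± 0.21 (adjusted p = 0.0533), and their mean was -0.09.

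In the group for folding in the endoplasmic reticulum, none of 12 genes passed and the median was -0.053. The chaperone bip1 (0.30 ± 0.14), calnexin CNX (0.35 ± 0.07, limma adjusted p = 0.0889) and the calreticulin crt2 (0.21 ± 0.11) were above 0 in 3 of 3 replicates. Among the 8 disulfide isomerases PDIL1-1 and PDIL2-1 (-0.54 ± 1.06) were the lowest. The 6 genes for heat shock proteins and chaperonins had a median of -0.009. CPNA was called lower and its relative CPNB stood at -0.12 ± 0.57.

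The 9 translation factors all had means at or above 0.00 and a median of 0.25, and none passed. The initiation factor eIF3A (0.78 ± 0.27) and the elongation factor elfa3 (0.34 ± 0.25) were the highest, with limma adjusted p of 0.322 and 0.181. With centring by table position 8 of 9 were above 0, and 4 of 9 were when read as Cy5 over Cy3. The 12 ribosomal protein genes had a median of 0.001, ran between -0.19 and 0.35 (prpl35-1, ± 0.40), and none passed. None of 8 genes of amino acid synthesis passed (median 0.012), and the methyltransferases HMT-3 and HMT-2 (0.52) were the highest.

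**Figure D3:**
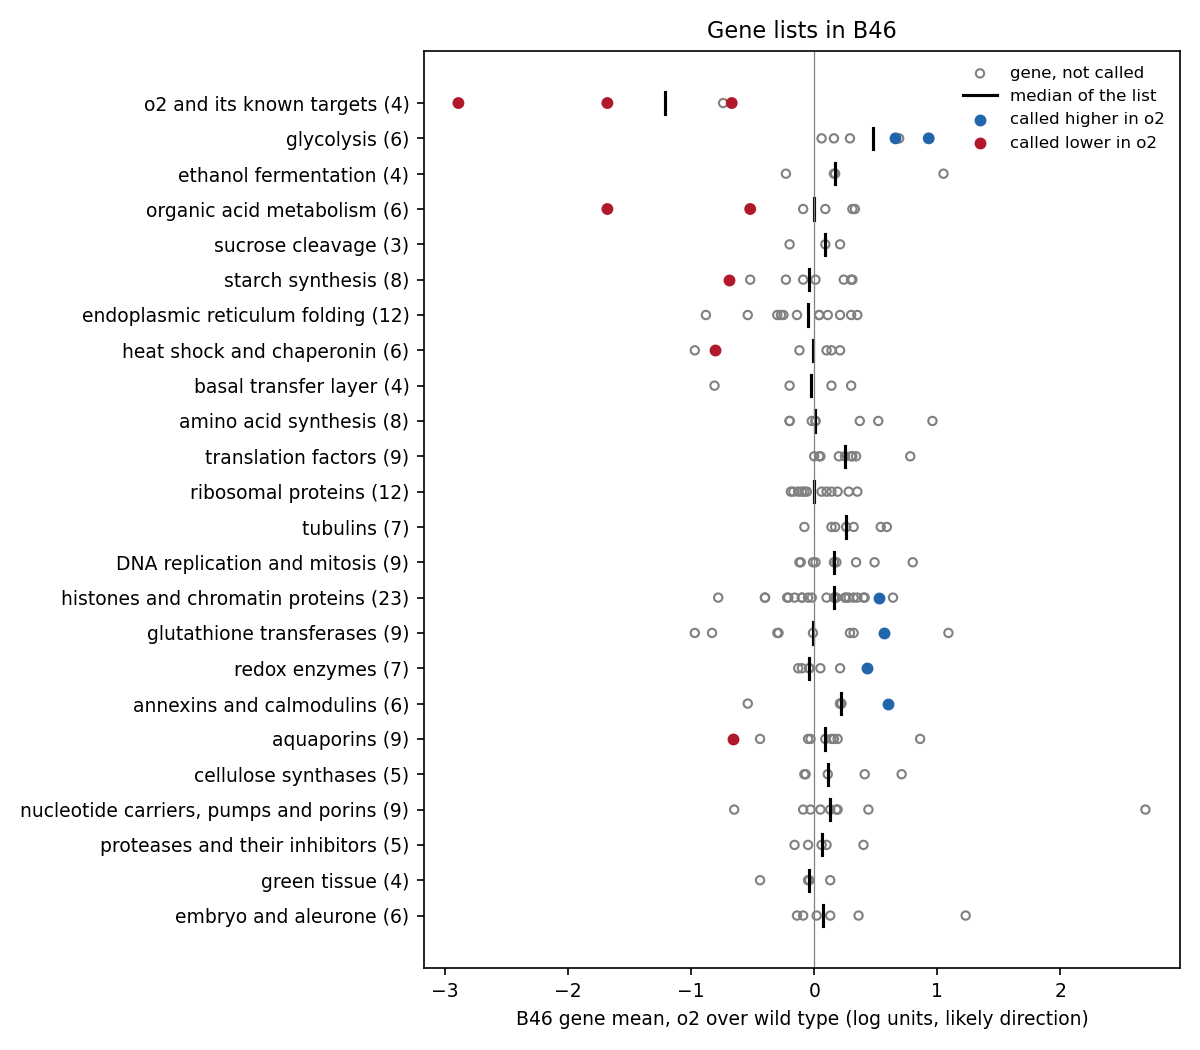
B46 gene means of o2 over wild type (x axis, log units) for the members of 24 gene lists (rows, number of genes in brackets). Open grey circles did not pass, filled blue and red circles were called higher and lower, and black ticks are list medians, from -1.21 for o2 and its known targets to 0.48 for glycolysis.

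Genes of growth and chromatin mostly lay within the spread of all features. Of 7 tubulins, the subunits of microtubules, 6 had positive means (median 0.26) and none passed, with tua6 at 0.59 ± 0.17 (limma adjusted p = 0.182) and TUA1 at 0.54 ± 0.19. With scaled arrays 5 of 7 were above 0. The clones of tua4 did not agree, since 1 stood at -1.36 and the other 3 between 0.30 and 0.39. Among 23 histone and chromatin genes (median 0.16) HMG I/Y-2 was called higher, the histone deacetylase hda110 had 0.41 ± 0.10 (limma adjusted p = 0.0531), nfa103 had 0.64 ± 0.82, and the centromeric histone cenH3 had -2.68, -0.71 and 1.04. None of 9 genes of DNA replication and mitosis passed (median 0.16).

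In the group of annexins and calmodulins, 5 of 6 genes were above 0 in every replicate (median 0.22) and Ann6 was called. The gene listed as calmodulin was the exception, with -0.84, -0.34 and -0.43 (mean -0.54 ± 0.27, limma adjusted p = 0.149). Read as Cy5 over Cy3, 2 of the 6 were above 0. Among 9 glutathione transferases gst30 was called higher and the median was -0.007, with gst16 at -0.83 ± 1.03, and among 7 redox enzymes trh2 was called higher and the median was -0.040. Of 9 aquaporins SIP1-1 was called lower and the median was 0.090. PIP1-5 was next to it, at -0.44 ± 0.15 (adjusted p = 0.0784).

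None of 5 cellulose synthases (median 0.11), 9 carriers, pumps and porins (0.13) or 5 proteases and inhibitors (0.061) passed. In the cellulose synthase cesa2 and the porin vdac1a, 1 replicate set the mean (2.42 in replicate 2 and -2.57 in replicate 3). The highest of the proteases and inhibitors was the cystatin gene cc4, at 0.40 ± 0.33. Markers of other kernel tissues showed no call. The basal transfer layer, through which sugars enter the endosperm, was represented by 4 genes with a median of -0.034. Its gene betl2 had -0.91, -0.74 and -0.78 (mean -0.81 ± 0.09, limma adjusted p = 0.133), against a mean of 0.30 ± 0.38 for betl4. The 6 genes of embryo and aleurone had a median of 0.076 and the 4 of green tissue one of -0.044, with the chlorophyll-binding lhcb5 farthest from 0 at -0.44 ± 0.45. The aleurone receptor kinase gene cr4 had 2.14, 2.67 and -1.12.

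Most of the calls were clones without a gene name: 259 of the 273 lower and 61 of the 68 higher ones. The lowest was the clone on table row 2385, with -7.40, -1.60 and -7.60 and a mean of -5.54 ± 3.41 (limma adjusted p = 0.0296). Next came rows 10519 (-4.20 ± 2.32), 2209 (-4.09 ± 2.59), 8419 (-3.97 ± 2.57), 8391 (-3.56 ± 2.20) and 14923 (-3.56 ± 1.96). These SDs are over the 3 B46 replicates, whereas the limma calls use the spread shared with M14 and the mixed pools. With the B46 replicates alone no clone passed (smallest limma adjusted p 0.21). The 6 lowest clones were all below 0 on 6 of 6 arrays, down to -11.16, and each was nearest to 0 in replicate 2.

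That pattern held across the stronger reductions. The 58 clones that fell by more than 2 log units had medians of -3.49, -1.39 and -3.04 in replicates 1, 2 and 3, and 57 of them were nearest to 0 in replicate 2. All 58 were below 0 on 6 of 6 arrays. The 128 clones that fell by less than 1 log unit had medians of -0.74, -0.59 and -0.67, and the 68 higher clones had 0.62, 0.69 and 0.55. The spread over all clones (median absolute deviation) was 0.41, 0.35 and 0.38, so replicate 2 was not narrower by the same factor throughout. The cause was not tested. Without replicate 2, 205 clones passed, 187 of them among the 341.

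**Figure D4:**
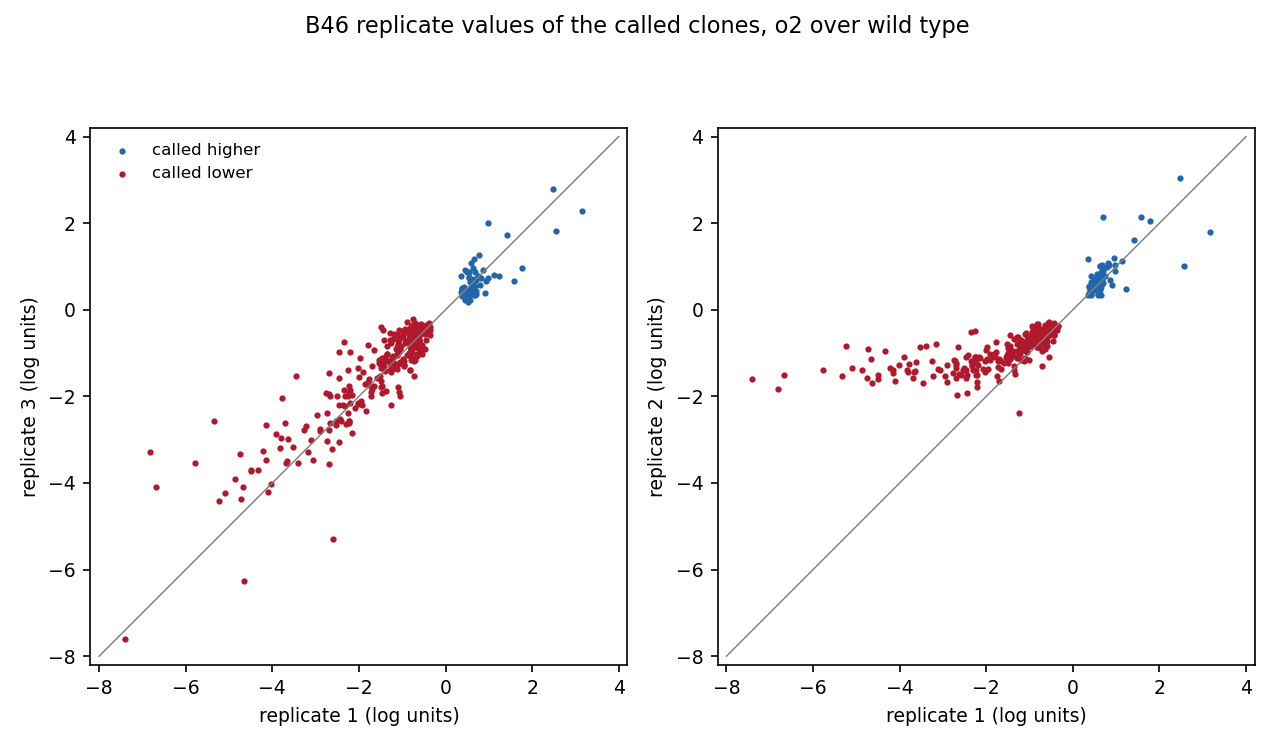
Replicate values of the 341 called clones in B46, o2 over wild type in log units, with replicate 1 on both x axes and replicate 3 (left) or replicate 2 (right) on the y axis. Grey lines mark equal values. The clones lower by more than 2 have medians of -3.49 in replicate 1 and -3.04 in replicate 3, but -1.39 in replicate 2.

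The higher unnamed clones differed more between the dye orientations. The clone on row 2589 had the highest called mean, 2.77 ± 0.28 (limma adjusted p = 0.00973), from 5.23, 5.91 and 6.86 with wild type on Cy5 and -0.26, 0.17 and -1.29 with o2 on Cy5. Rows 15145 (2.41 ± 0.70), 2677 (1.80 ± 0.77), 12809 (1.59 ± 0.56) and 15787 (1.46 ± 0.74) likewise were high on the arrays with wild type on Cy5, with means of 3.17 to 4.60, against -1.27 to 0.22 on the others. Row 12143 did not show this: its replicates were 1.42, 1.60 and 1.73, its arrays ran between 1.35 and 2.11, and its mean of 1.58 ± 0.16 had the smallest adjusted p of all clones (0.00532). Of the 68 higher clones 50 kept 1 sign on all 6 arrays, as did 255 of the 273 lower ones, beside 12% of all clones. The clones were called on these same arrays, which favours 1 sign, so the higher shares are no support for the calls.

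The calls were spread unevenly over the table. The table of 16560 rows was divided into 8 equal stretches of 2070 rows, each cut into 10 segments of 207 rows, a grouping chosen after the values were seen. The lower clones numbered 71, 80, 40, 0, 0, 0, 1, 2, 12 and 67 from segment 1 to segment 10, and the higher ones 2, 10, 3, 10, 3, 10, 5, 12, 10 and 3. Segments 9, 10, 1, 2 and 3 held 3527 of the 7466 clones (47.2%), 270 of the 273 lower clones, 28 of the 68 higher ones, and all 14 called lower clones with a gene name. They held 247 of the named clones, and the other segments 242.

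The arrays also behaved differently by position. In segments 9, 10, 1, 2 and 3, 650 clones kept 1 sign on all 6 arrays, against 283 when read as Cy5 over Cy3. In the other segments 247 did, against 586 when read as Cy5 over Cy3. Partner arrays of a dye swap correlated across clones at 0.015, 0.057 and -0.12 in segments 9, 10, 1, 2 and 3 and at -0.32, -0.082 and -0.57 elsewhere. Over all clones, partner arrays correlated at -0.15, -0.018 and -0.35. Arrays of the same dye orientation correlated more, at 0.26 to 0.44 with wild type on Cy5 and 0.23 to 0.34 with o2 on Cy5. Medians of single arrays by segment ran between -0.69 and 0.55. Centring within segments, chosen after seeing the data, left 313 calls, 238 lower and 75 higher, with o2 at -0.50 (limma adjusted p = 0.0639), z1C1_12 at -2.71 (0.0474) and pdk1 at -1.51 (0.0117). How rows map to places on the slide is not given in the sources used here, and the part of position in these calls was not tested.

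**Figure D5:**
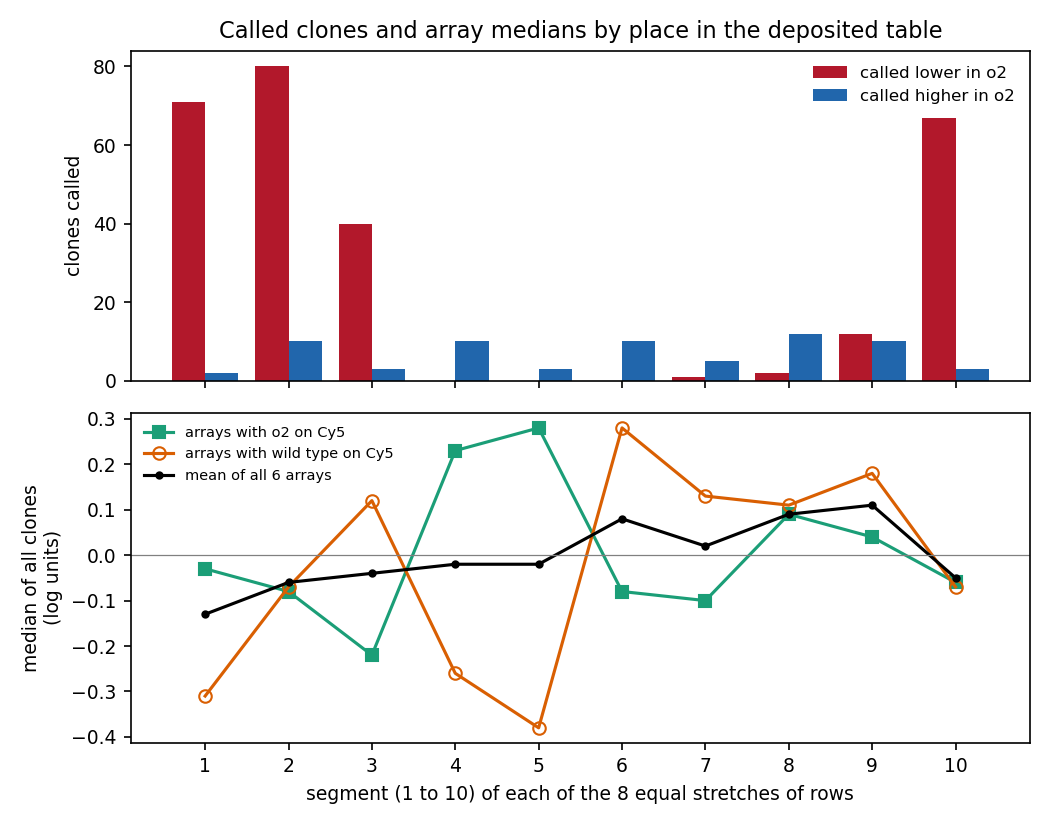
Top, number of clones called lower (red) and higher (blue) in o2 by segment (1 to 10) of the 8 equal stretches of table rows (x axis). Bottom, median log ratio of all clones in each segment for the arrays with o2 on Cy5, the arrays with wild type on Cy5 and their mean. Segments 4 to 6 hold 0 lower calls, and segment 2 holds 80.

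Clones of the same gene can be compared within the arrays. For 94 genes with more than 1 clone, the clones' means spanned a median of 0.26 log units, and 43 genes had 1 sign over all clones. Of the 94 genes, 75 had exactly 2 clones, and 2 unrelated clones often share a sign. No span or count is given for clones paired at random, so these values do not show agreement. The span was above 0.5 in 25 genes and above 1 in 5, namely tua4, sugary2, HB133, pglcat6 and sbe1. LOC542547 had 1 called clone at -0.99 ± 0.30 (limma adjusted p = 0.011) and another at 0.00 ± 0.18.

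Whether the effect in B46 differed from that in other backgrounds was tested directly, and no clone passed for B46 minus M14 or for B46 minus the mixed pools (0% each). At an unadjusted p under 0.05 there were 733 and 394 clones, and the smallest adjusted p were 0.241 and 0.409. The mixed pools contain B46 RNA. For o2 the B46 mean was -0.67, the M14 mean -0.37 and the mean of the pools -0.23. In the same order pdk1 had -1.68, -0.73 and -0.82, z1C1_12 had -2.89, -2.26 and -1.60, and Asn1 had -0.85, -0.86 and -0.68. GPC1 stood at 0.66 (B46), -0.06 (M14) and 0.29 (pools), a difference from M14 of 0.73 with an unadjusted limma p of 0.00144 and an adjusted p above the threshold. The test thus left no clone called in B46 that was shown to be particular to this line. Without B46 replicate 2, 24 clones passed against M14 and 17 against the mixed pools.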

How the data were processed

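Array images were quantified with ImaGene 4.1, per the labels. The deposited table gives a log ratio made by the authors for every row of every array, between -8.12 and 11.46 on the B46 arrays. How it was background-corrected and normalized is not given in the sources used here, and scanner intensities were not used. Each clone stood on 2 neighbouring rows with identical values and was counted once. Arrays were centred on their median, turned to o2 over wild type, and averaged within a dye swap (n = 3).

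The test per clone used R 4.3.3 with limma 3.58.1 (lmFit, eBayes, a mean per comparison, all 9 replicates of B46, M14 and mixed in 1 fit with 6 residual and 1.51 prior degrees of freedom), with Benjamini-Hochberg adjustment over all 7466 clones and a threshold of 0.05. Precision is limited by the 3 independent sample pairs of each comparison, since the 2 arrays of a dye swap share a pair. The limma fit was tried on simulated replicates of independent noise with known effects. The steps before the fit, dye or position effects and a spread particular to 1 comparison were not simulated.

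Gene names came from a platform annotation of 2007, and identifiers of 360 of the 370 genes were found in the RefSeq genes of Zm-B73-REFERENCE-NAM-5.0, which gave symbols and aliases. The name shown is the platform symbol or a RefSeq symbol or alias, with names on hand-made lists preferred. Members and lists were chosen with earlier results of these data known, and list membership was assigned by hand from symbols. The text names o2, its known targets and Asn1, every called named gene, the 12 highest and 12 lowest named means with 1 sign in all 3 replicates, 1 or more of the largest members of each list, and the 6 highest and 6 lowest called unnamed clones. No coordinates or sequences are given. The grouping by table position was chosen after the values and several other row periods had been looked at.

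Replicate numbers do not pair the comparisons by the labels, and deviations of same-numbered replicates correlated between -0.034 and 0.102. The alternatives changed the samples in the fit, the ratio's direction, the dye orientation used, centring, scaling, the filter, the eBayes options, the weights, the replicate block and centring by table position.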

Additional observations from a re-analysis of the deposited data

How the results depend on the processing

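The counts of called clones depended on the shared spread, on the reading of the ratio and on single replicates. The B46 replicates alone gave 0 clones and 0 named genes in either direction (limma, 1032 clones and 56 named genes at an unadjusted p under 0.05). Values turned by the labelled dyes gave 5 clones (4 higher, 1 lower) and 0 named genes (40 unadjusted), and with centring by table segments added, chosen after seeing the data, 0 of each (1033 clones and 40 named genes unadjusted). The arrays with o2 on Cy5 alone gave 97 clones (12 higher, 85 lower) and 4 named genes. The trend and robust options gave 159 (18, 141) and 5. The replicate block gave 185 (25, 160) and 8, with 167 of the clones and 7 of the genes shared with the 341 and 19. Scaled arrays gave 31 higher clones and 12 named genes. Without the clones that differed most between partner arrays there were 125 higher clones and 29 named genes, and with replicate weights 158 and 31. Leaving out 1 replicate of any comparison gave 1 to 314 clones, 1 to 71 higher, 0 to 258 lower and 0 to 16 named genes. It gave 0 to 24 clones for B46 minus M14 and 0 to 17 for B46 minus mixed.

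Signs turned in few settings. Turned by the labelled dyes, CPNA stood at 0.12, les22 at 0.01, lpa1 at 0.07, GPC1 at -0.07, gpc4 at -0.02, gst30 at -0.21, LOC542547 row 10289 at 0.12, and rows 2385, 8391 and 8419 at 1.59, 0.97 and 0.89. With centring by table segments added, o2 stood at 0.02, dad1 at 0.07, lpa1 at 0.07, SIP1-1 at 0.09, GPC1 at -0.14, gst30 at -0.21, gpc3 row 491 at -0.10, sbe1 row 12497 at 0.06, LOC542547 row 10289 at 0.13, and rows 2385, 8391 and 8419 at 1.59, 1.12 and 1.04. On the o2-on-Cy5 arrays alone, rows 2589, 2677, 12809 and 15787 stood at -0.46, -0.26, -1.27 and -0.25. No called gene or clone named here changed sign when a replicate was left out. That was fixed in advance, because each had 1 sign in all 3 B46 replicates, so it is no evidence of stability. The causes were not tested. Depth has no counterpart in these ratios, and signal over background could not be checked.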
